A study of Homo sapiens with 3 samples.

Results

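Long intergenic non-coding RNA (LINC) genes are transcribed units between protein-coding genes whose RNAs are not known to encode long proteins. In the merged list of H3 variant regions from MDA-MB-231 LM2 cells, 270 of 67965 regions on chromosomes 1 to 22 and X were assigned by the authors to symbols of the LINC series with a number and to no other gene. They carried 142 LINC symbols, with 1 symbol in 251 regions, 2 in 18 and 3 in 1. A promoter was counted by the authors in 86 of these regions, 125 others lay inside a LINC gene (gene body) and 59 lay upstream or downstream of one without touching its promoter window (near a gene). The promoter mark matched a window from 7500 bases before to 2500 bases after the start in 100% of the 36810 regions with 1 gene, so a promoter region here need not cover the start itself. The assignment to LINC genes used the annotation alone, but a region entered the list only where the authors called it in at least 1 of the ChIPs.

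The cells, MDA-MB-231 LM2, descend from the triple-negative human breast cancer line MDA-MB-231 and were selected for spread to the lung. It was profiled by chromatin immunoprecipitation and sequencing (ChIP-seq) with 1 antibody to H3.1 and H3.2 together (4 µg) and another to H3.3 (6 µg), each on 30 µg of chromatin. There was 1 library per antibody and 1 input DNA, which was not analysed here. The labels give no treatment or genotype, although both ChIP columns are headed shGFP, a name no label explains. All cells were of this 1 line, and no expression values were at hand to check its identity by marker genes. Because no group had replicates, no p-value is given. What is compared is therefore a pair of libraries, and an interval stands for counting error or for the scatter among regions.

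Histone H3 comes in replication-coupled forms, H3.1 and H3.2, placed behind the replication fork, and in the replacement form H3.3, which is put in at any time of the cell cycle, above all where nucleosomes are lost at active starts and regulatory elements. LINC RNAs are transcribed by RNA polymerase II, and many of their starts resemble enhancers or share a bidirectional start with another transcript. A few have well-studied roles, such as NORAD, which binds Pumilio proteins and guards chromosome stability, and CHASERR, which restrains its neighbour, the chromatin remodeller gene CHD2.

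Start sequences of LINC genes at both ends of the H3.3 balance are shown first, because CG-rich and CG-poor starts occur at both of them. RefSeq (GRCh38.p14, the same assembly as the files' hg38) held all 142 symbols, 125 as current names and 17 as older ones. Among 75 pairs of a promoter region and a LINC start with a RefSeq sequence, 69 starts lay within 10 bases of the one implied by the deposited distances. In 19 pairs the window of 250 bases before to 50 after the start lay wholly inside the region. The 3 regions of lowest and the 3 of highest H3.3 balance among these are printed 5′ to 3′ with CG dinucleotides in capitals, lowest balance first. They are LINC00882 (chr3:107240589-107240888, minus strand), LINC00657, now NORAD (chr20:36050911-36051210, minus), LINC01546 (chrX:3271570-3271869, plus), LINC00933 (chr15:84570399-84570698, plus), LINC01276 (chr6:41502194-41502493, plus) and LINC01485 (chr5:173790893-173791192, minus).
LINC00882: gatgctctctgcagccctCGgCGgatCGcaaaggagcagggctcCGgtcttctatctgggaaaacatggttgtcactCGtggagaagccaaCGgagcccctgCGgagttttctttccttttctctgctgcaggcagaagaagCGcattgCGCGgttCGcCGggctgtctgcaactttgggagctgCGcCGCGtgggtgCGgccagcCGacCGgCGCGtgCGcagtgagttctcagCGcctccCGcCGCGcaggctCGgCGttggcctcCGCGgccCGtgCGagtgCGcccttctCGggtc
LINC00657: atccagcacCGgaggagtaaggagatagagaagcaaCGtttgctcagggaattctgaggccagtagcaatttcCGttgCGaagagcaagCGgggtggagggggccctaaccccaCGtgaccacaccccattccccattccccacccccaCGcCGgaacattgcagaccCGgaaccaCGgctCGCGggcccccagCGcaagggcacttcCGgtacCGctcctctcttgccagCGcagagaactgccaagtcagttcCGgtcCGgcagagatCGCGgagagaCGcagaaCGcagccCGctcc
LINC01546: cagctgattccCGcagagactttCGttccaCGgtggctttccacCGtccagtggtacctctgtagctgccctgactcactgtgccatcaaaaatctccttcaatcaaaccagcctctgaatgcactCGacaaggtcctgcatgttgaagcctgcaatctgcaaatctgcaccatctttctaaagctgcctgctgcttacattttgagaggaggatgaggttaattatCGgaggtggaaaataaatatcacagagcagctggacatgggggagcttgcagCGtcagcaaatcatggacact
LINC00933: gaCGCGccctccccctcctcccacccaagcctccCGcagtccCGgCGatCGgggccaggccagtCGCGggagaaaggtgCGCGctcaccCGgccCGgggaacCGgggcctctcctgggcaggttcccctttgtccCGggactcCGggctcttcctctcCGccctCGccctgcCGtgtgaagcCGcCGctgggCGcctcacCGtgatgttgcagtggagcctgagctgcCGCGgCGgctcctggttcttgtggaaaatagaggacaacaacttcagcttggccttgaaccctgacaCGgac
LINC01276: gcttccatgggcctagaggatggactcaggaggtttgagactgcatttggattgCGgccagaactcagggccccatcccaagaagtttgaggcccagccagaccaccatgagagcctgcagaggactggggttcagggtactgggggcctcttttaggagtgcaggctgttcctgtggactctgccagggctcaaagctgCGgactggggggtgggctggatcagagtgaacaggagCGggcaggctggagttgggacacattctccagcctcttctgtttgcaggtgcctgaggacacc
LINC01485: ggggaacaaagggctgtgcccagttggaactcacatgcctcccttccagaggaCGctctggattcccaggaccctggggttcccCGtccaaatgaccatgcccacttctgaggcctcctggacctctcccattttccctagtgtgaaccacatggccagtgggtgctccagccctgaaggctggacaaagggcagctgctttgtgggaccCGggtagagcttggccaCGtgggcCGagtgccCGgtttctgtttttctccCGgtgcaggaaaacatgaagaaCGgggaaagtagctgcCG

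The LINC00882 start held 33 CG dinucleotides in 300 bases and NORAD 23, whereas LINC01276 held 3 and LINC01485 held 9. The median over 35116 RefSeq promoter windows was 14. At the LINC00882 region, which it shares with LINC00883, the mean pileup height of H3.1/H3.2 was 9.38 and that of H3.3 was 6.50, and at the NORAD region 7.85 and 10.2. LINC01276 stood at 3.18 and 14.1 and LINC01485 at 1.83 and 10.2. CG-poor LINC01546, with 7 dinucleotides, stood lower at 3.07 and 7.55, and CG-rich LINC00933, with 26, at 5 and 20.2, the highest H3.3 height of the 270 regions. Over the 19 windows, the 10 whose region held a CpG island had a median of 30 CG dinucleotides and a median log2 ratio, explained below, of 1.59, and the 9 without one had 9 dinucleotides and a ratio of 1.45.

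The log2 ratio of both variants, defined below, lay above 0 (H3.3 the higher) in 243 of the 270 LINC regions and in 54.1% of all regions. Their H3.1/H3.2 height had a median of 3.60 and their H3.3 height one of 9.67, against 6.62 and 7.76 over all regions of the list. An H3.3 height at least 2-fold that of H3.1/H3.2 was found in 207 LINC regions (76.7%), where 36.0% of all regions passed the same fold. The opposite 2-fold excess held in 17 LINC regions (6.30%), against 22.4% of all. The log2 ratio below is log2((H3.3 + 1)/(H3.1/H3.2 + 1)), which understates the ratio of low regions. Its median was 1.28 (1.18 to 1.35, 95% order-statistic interval over regions) for LINC regions and 0.27 over all regions. Since the sources used here do not say how the ChIPs were scaled against one another, a ratio is positive or negative only relative to that scaling.

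**Figure D1:**
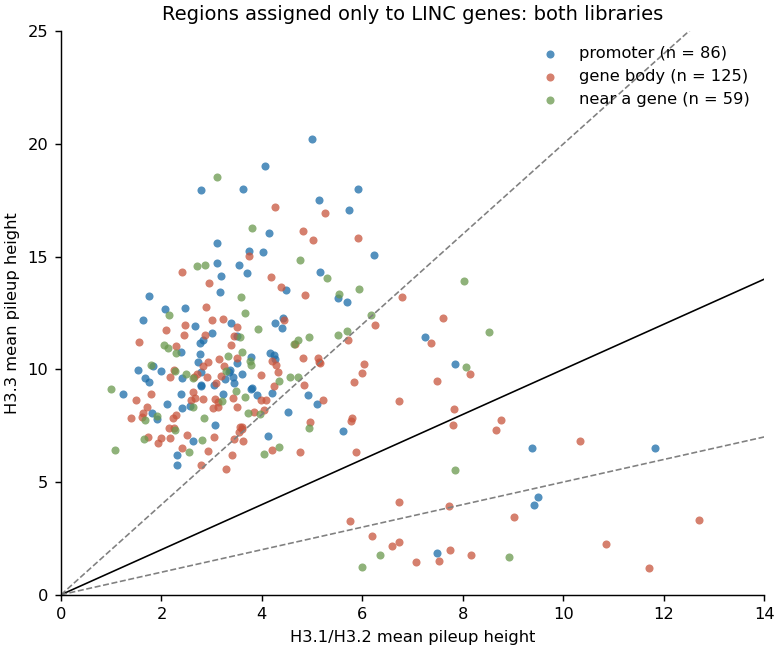
Mean pileup height of H3.1/H3.2 (x axis) and H3.3 (y axis) in each of the 270 LINC regions, coloured by place, with the line of equal heights (solid) and both 2-fold lines (dashed). Most points lie above the upper dashed line (207 of 270), and 17 lie at or below the lower one.

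The depth behind these values was modest. An estimated 11595 H3.1/H3.2 tags and 31152 H3.3 tags fell in the 270 regions. The typical LINC region held 28 H3.1/H3.2 and 68 H3.3 tags (medians). With so many tags the fold was bounded above 1 by its 95% counting interval in 220 LINC regions, where 45.2% of all regions were, and below 1 in 18, where 33.8% were. The interval included 1 in the other 32. At promoters it lay above 1 in 76 of 86 (60.1% of all promoter regions), and in bodies it lay below 1 in 12 of 125 (46.3% of all body regions).

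The authors' region calls rest on the same libraries as the heights and decide which regions are listed, so they are no separate evidence. Of the LINC regions 232 were called in the H3.3 ChIP alone (45.7% of all regions were), 24 in the H3.1/H3.2 ChIP alone (38.0% of all) and 14 in both (16.3% of all). At promoters 78 of 86 were called in H3.3 alone, 90.7% (exact binomial 95% interval 82.5 to 95.9), against 56.6% of all promoter regions. In gene bodies 101 of 125 were, 80.8% (72.8 to 87.3), against 32.4% of all body regions. Calls in H3.1/H3.2 alone numbered 5 at LINC promoters, where 19.9% of all promoter regions had them, and 15 in LINC bodies, where 53.8% of all body regions did.

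At LINC promoters H3.1/H3.2 was low and H3.3 high. The 86 promoter regions had a median H3.1/H3.2 height of 3.44 (1.24 to 11.8, lowest and highest) and a median H3.3 height of 10.3 (1.83 to 20.2). Their median log2 ratio was 1.43 (1.31 to 1.60), against 0.78 in all 23465 promoter regions. A 2-fold excess of H3.3 was found in 74 of 86, 86.0% (76.9 to 92.6), where 46.6% of all promoter regions passed. The 2-fold excess of H3.1/H3.2 was found in 3 of them, where 11.4% of all promoter regions passed.

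LINC gene bodies kept the H3.3 side, where bodies of most other genes did not. The 125 body regions had a median H3.1/H3.2 height of 3.63 (1.40 to 12.7) and a median H3.3 height of 8.69 (1.20 to 17.2). In 36305 body regions of other genes the medians were 7.41 and 5.84, so the order of both variants was the opposite. Regions of other genes here hold at least 1 symbol and none of the LINC series, and their symbols are neither all LOC nor all antisense. The median log2 ratio was 1.11 (0.91 to 1.29) in LINC bodies and -0.51 in those of other genes, a difference of 1.62 (1.42 to 1.80). Within a class of calls the gap was far smaller. A call in 1 ChIP alone nearly fixes the sign of the ratio, so this split is no separate evidence. In body regions called in H3.3 alone the median was 1.33 (1.14 to 1.42) for LINC genes and 1.12 for others, and in those called in both ChIPs 0.24 (-0.16 to 0.93) and -0.09. Where H3.1/H3.2 alone had been called it was -1.27 (-1.72 to -0.82) for LINC genes and -0.93 for others. The mix of calls also differed, with H3.3 alone in 80.8% of LINC body regions and 30.9% of those of other genes. H3.3 exceeded 2-fold in 84 of 125 LINC body regions, 67.2% (58.2 to 75.3), where 23.0% of all body regions passed. H3.1/H3.2 exceeded 2-fold in 11, where 31.7% of all body regions passed. One gene, LINC00673, supplied 22 of the 125, and without its regions the body median was 1.22.

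The pooled difference between LINC promoters and bodies was small. It came to 0.31 (0.10 to 0.58) on the log2 scale, against 1.24 between promoter and body regions of other genes. With 1 value per LINC gene, a shared region counting for each of its genes, it was 0.21 (-0.02 to 0.47), which includes 0. The 59 regions near a LINC gene had a median H3.1/H3.2 height of 3.67, a median H3.3 height of 10.1 and a log2 ratio of 1.23 (1.07 to 1.42), a ratio between those of promoters and bodies. Of these 49 passed 2-fold to H3.3, where 59.7% of all regions near a gene did, and 3 passed it to H3.1/H3.2, where 9.82% did. Calls in both ChIPs numbered 2, against 8.71% of all such regions.

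**Figure D2:**
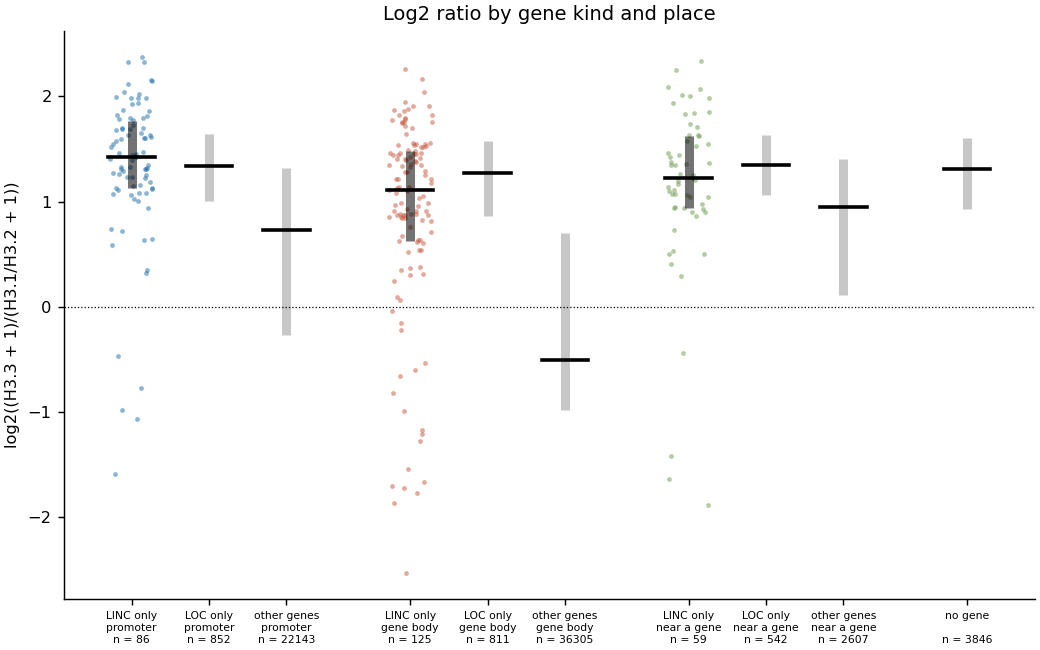
Log2 ratio (y axis), positive where H3.3 is the higher, by place and kind of assigned gene. Points are single LINC regions, thick bars the middle 50% of regions and black lines medians, and the groups without points are drawn as bars only. Medians of LINC regions were 1.43 at promoters, 1.11 in bodies and 1.23 near genes, and other genes fell to -0.51 in bodies.

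The same balance was seen in other sparsely annotated chromatin. Regions assigned only to LOC symbols, the provisional names of mostly non-coding or predicted genes, had a median log2 ratio of 1.34 at 852 promoters and 1.27 in 811 bodies. LINC regions differed from them by 0.09 (-0.04 to 0.26) at promoters and -0.16 (-0.36 to 0.02) in bodies, both intervals including 0. Regions with only antisense RNA symbols had 1.03 in 68 bodies. The 3846 regions with no gene had 1.31, and LINC bodies lay below them by -0.20 (-0.40 to -0.02). These intervals cover the spread over regions, and neighbouring regions of 1 gene are not independent.

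By symbol, promoter and body regions could be paired in 22 LINC genes, shared regions included. The promoter was the higher in 10 of them, and the median of promoter minus body was -0.06 (-0.28 to 0.57) on the log2 scale. Among 2084 other genes with regions of their own at both places the promoter was the higher in 78.8%, with a median of 0.70. The largest gaps were opposite in direction. LINC00882 had a promoter of -0.47 and a body of 1.91, and LINC00330 had a promoter of 1.31 and a body of -0.66. In LINC01411, whose regions were all its own, promoter and body differed by -0.055. A shared region counted for each of its symbols, even where the promoter in it was that of another gene. The promoter regions given to LINC01581 and LINC00511 thus lay downstream of them, in the promoter windows of neighbours, as did some given to LINC01270. With rows of 1 symbol only, the median difference was -0.09 (-0.28 to 0.60). Some of the 22 genes share regions, such as LINC01270 with LINC01271 and LINC01580 with LINC01581, and are not independent.

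**Figure D3:**
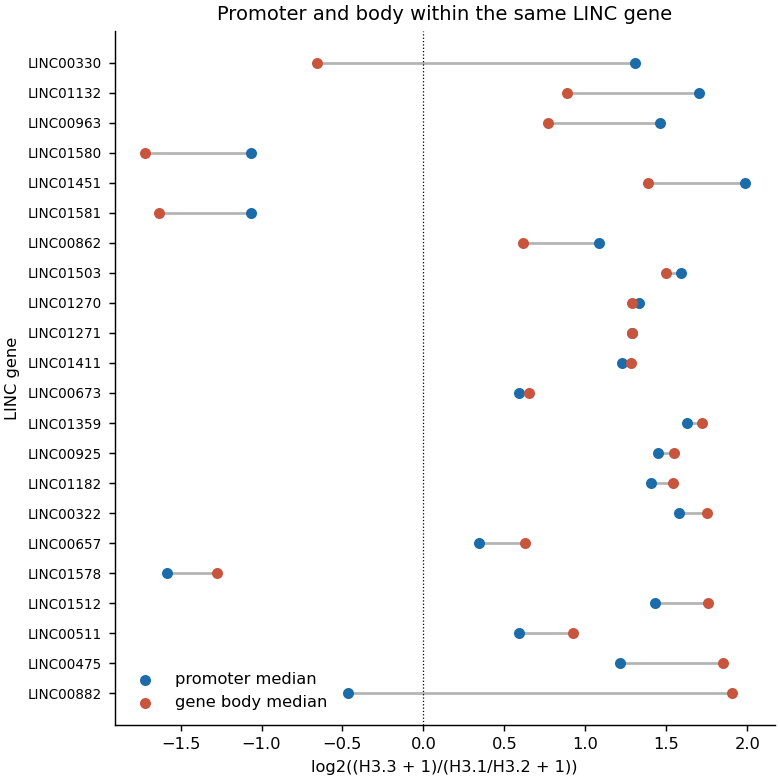
Median log2 ratio of promoter regions (blue) and gene body regions (red) in the 22 LINC genes (y axis) that had both, sorted by their difference. A shared region counts for each of its genes, even where the promoter in it is that of another gene. In 10 genes the promoter lay to the right of the body, and both values lay on the same side of 0 in all but LINC00330 and LINC00882.

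Along the gene the profile of LINC genes stayed on one side of 0. Only regions with 1 assigned gene were used here. From 2500 to 7500 bases upstream of the start the median log2 ratio was 1.43 in 15 LINC regions and 1.30 in 558 of other genes. In the first 2500 bases of the gene it was 1.42 in 24 LINC regions and 0.85 in 2396 of other genes. Between 2500 and 10000 bases the LINC median was 1.31 (26 regions, 0.63 to 1.52) and that of other genes -0.55 (3267 regions). Between 10000 and 25000 bases the values were 0.91 (31 regions, 0.71 to 1.34) and -0.65. From 25000 to 50000 bases they were 1.22 (25 regions) and -0.63, and from 50000 to 100000 bases 1.21 (21 regions) and -0.53. Beyond 100000 bases they were 0.84 (19 regions, many of LINC00673, 0.61 to 1.56) and -0.26. Upstream of the start, then, LINC and other genes had like ratios, and inside the gene they parted. Neither library alone made the gap. Between 10000 and 25000 bases H3.1/H3.2 was at a median of 3.57 in LINC genes against 7.69 in others, and H3.3 at 8.05 against 5.11. The 50 regions downstream of a single LINC gene had a median log2 ratio of 1.24.

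**Figure D4:**
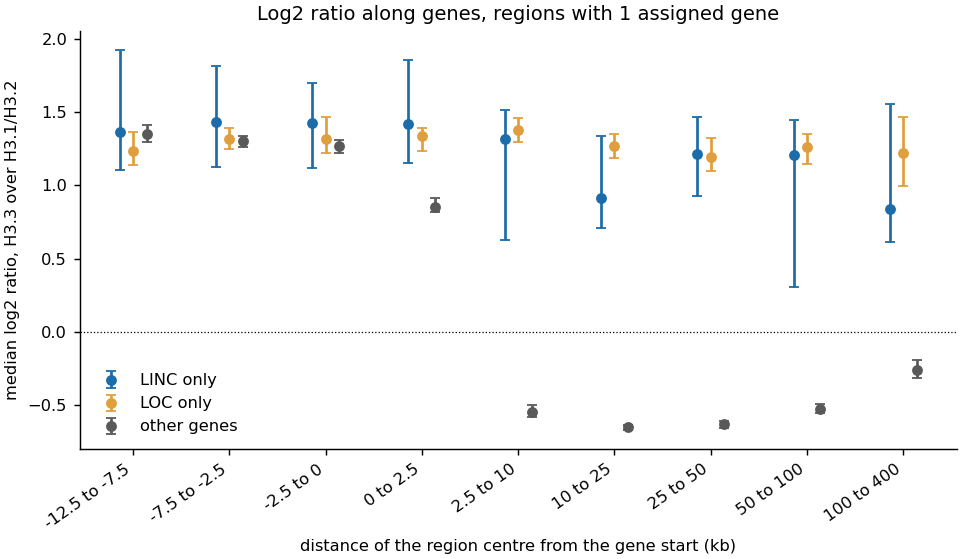
Median log2 ratio (y axis) with its 95% order-statistic interval over regions, by distance of the region centre from the gene start in kb (x axis), for regions with 1 assigned LINC gene, LOC gene or other gene. Other genes cross 0 after the first 2.5 kb, whereas LINC and LOC genes stay above it in every interval shown.

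CpG islands, CG-rich stretches found at many gene starts, divided LINC promoters little. The 28 LINC promoters with an island had a median of 1.46 (1.28 to 1.64) and the 58 without one 1.40 (1.25 to 1.61). At other genes the corresponding medians were 0.90 over 11543 promoters and 0.43 over 10600. In LINC bodies the 11 regions with an island had 0.95 (-0.53 to 1.53) and the 114 without one 1.13 (0.91 to 1.34). In bodies of other genes the medians were 0.76 in 2557 regions with an island and -0.57 in 33748 without.

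Distance from protein-coding genes was taken from RefSeq gene spans. A coding gene overlapped 11 LINC regions, 116 lay within 50000 bases of one and 143 lay farther away. The median log2 ratios were 1.53 (0.35 to 1.72), 1.34 (1.18 to 1.46) and 1.21 (1.07 to 1.33), intervals that overlap. In 5 of the 11 overlaps the coding gene was the LINC gene itself under its current RefSeq name (LINC01420 as NBDY and LINC01336 as GCNT4).

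Among LINC promoters of at least median summed height, the highest fold was at LINC00460, a transcript studied in several carcinomas. Its 3 promoter regions had H3.1/H3.2 heights of 1.75, 4.52 and 2.47 and H3.3 heights of 13.2, 8.12 and 12.7 in order along chromosome 13 (106374600 to 106377599). The outer regions stood at 7.57-fold (2.43 to 41.5, from 3 and 24 tags) and 5.16-fold (2.69 to 11.0), while the interval of the middle region, 1.80-fold (0.952 to 3.57), included 1. LINC01422 on chromosome 22 followed at 7.46-fold (3.58 to 16.5), with heights of 1.63 and 12.2. LINC01276, whose nearest coding gene on chromosome 6 was the forkhead gene FOXP4, had 2.78 and 18.0 in its second promoter region, at 6.46-fold (3.61 to 13.4). LINC01348, LINC01342, LINC00525 and LINC01094 completed the highest 8 at 4.74-fold to 6.11-fold, so that these 8 regions came from 7 genes.

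Among LINC body regions of at least median summed height, the highest fold was at LINC01182 (7.24-fold, 3.22 to 18.7, heights of 1.55 and 11.2). Next came 1 region of LINC00452 (5.92-fold, 2.16 to 24.7, from 4 and 25 tags) and LINC01135. LINC01135, now JUN-DT, is transcribed divergently from the AP-1 gene JUN, and its region 64348 bases into the gene had heights of 2.10 and 11.7 (5.60-fold, 3.42 to 9.18). The other 5 of the highest 8, in LINC00882, LINC00824, LINC01006, LINC00475 and LINC01512, ran from 4.42-fold to 4.86-fold.

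A small set of LINC regions carried more H3.1/H3.2 than H3.3. The log2 ratio was below 0 in the remaining 27 regions, and the 24 called in H3.1/H3.2 alone lay in 21 genes, 15 of the regions in bodies, 5 at promoters and 4 near a gene. The tallest H3.1/H3.2 height, 12.7 against 3.32 for H3.3, was in LINC00999 on chromosome 10 (0.261-fold, 0.178 to 0.365). LINC01266 had 11.7 and 1.20, from 10 and 1 tags in 199 bases (0.102-fold, 0.00230 to 0.703). LINC00152, now CYTOR, a cytoskeleton regulator RNA named in many tumours, had 10.8 and 2.25 in its 1 region (0.207-fold, 0.0521 to 0.633). CYTOR has a near-identical copy elsewhere on chromosome 2, so reads of both could have been mixed there. LINC00174 had 10.3 and 6.83 in the longer of its body regions (0.661-fold, 0.500 to 0.865). At LINC promoters the lowest fold among regions of at least median summed height was at LINC00618, with 9.50 and 4.32 (0.455-fold, 0.288 to 0.707). LINC01220, which lies beside the AP-1 gene FOS, was split, with 11.8 and 6.50 in a region of 199 bases whose fold interval included 1 (0.166 to 1.61), and H3.3 above 2-fold in the regions on both sides (2.38-fold and 2.51-fold).

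On chromosome 15 the LINC regions from LINC01578 to LINC01581 (92884600 to 94034199) were all of this kind. LINC01578, now CHASERR, had heights of 7.49 and 1.83 in its promoter region (0.244-fold, 0.137 to 0.411) and 6.60 and 2.14 in its body (0.325-fold, 0.144 to 0.633). The promoter region was centred 2856 bases inside the gene and did not cover the start. The shared start of LINC01579 and LINC01580 had 9.41 and 3.97 (0.422-fold, 0.292 to 0.601), a body region shared by LINC01580 and LINC01581 had 8.17 and 1.78, and a further one of LINC01581 had 7.74 and 2.00. All 5 regions were called in H3.1/H3.2 alone and passed the 2-fold excess of H3.1/H3.2. This run was picked out after its values were seen.

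Genes with several regions mostly kept to one side. Of 67 LINC genes with at least 2 regions, 56 had every region above 0, 6 had every region below 0 and 5 had regions on both sides. The 6 were LINC00174, LINC00618, LINC00674, LINC01578, LINC01580 and LINC01581, and the last pair shared regions.

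LINC00673, between SOX9 and SLC39A11 on chromosome 17, had the most regions, 24 between 72388400 and 72604399, of which 3 were shared with its neighbour LINC00511. One of these 3 lay before the LINC00673 start and inside LINC00511, and it is counted among the body regions. Its 22 body regions ran from 2.18 to 9.03 in H3.1/H3.2 (median 5.50) and from 3.46 to 16.1 in H3.3 (median 9.28). The fold ran from 0.383 to 3.59, passed 2-fold to H3.3 in 8 and to H3.1/H3.2 in 1, and its counting interval included 1 in 7. Of these body regions 6 were called in both ChIPs, which left 3 such regions in all other LINC bodies. The lowest region lay 8805 bases into the gene, where H3.1/H3.2 reached 9.03 and H3.3 3.46 (0.383-fold, 0.220 to 0.686), and the promoter region had 7.25 and 11.4 (1.58-fold, 1.20 to 2.11). LINC00673 thus held both balanced and H3.3-rich regions.

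LINC01342 on chromosome 1 (1127200 to 1154399) was even by comparison. Its 9 regions, 5 at the promoter and 4 near the gene, had H3.1/H3.2 heights from 1 to 2.28 and H3.3 heights from 8.48 to 12.7. All 9 passed 2-fold and were called in H3.3 alone, with log2 ratios from 1.61 to 2.34. LINC00452 on chromosome 13 had 7 body regions with log2 ratios from 0.07 to 2.16, of which 5 passed 2-fold. LINC00322 on chromosome 21 and LINC01503 on chromosome 9 had 6 regions each, all past 2-fold, with log2 ratios from 1.20 to 1.79 and from 0.93 to 1.59.

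**Figure D5:**
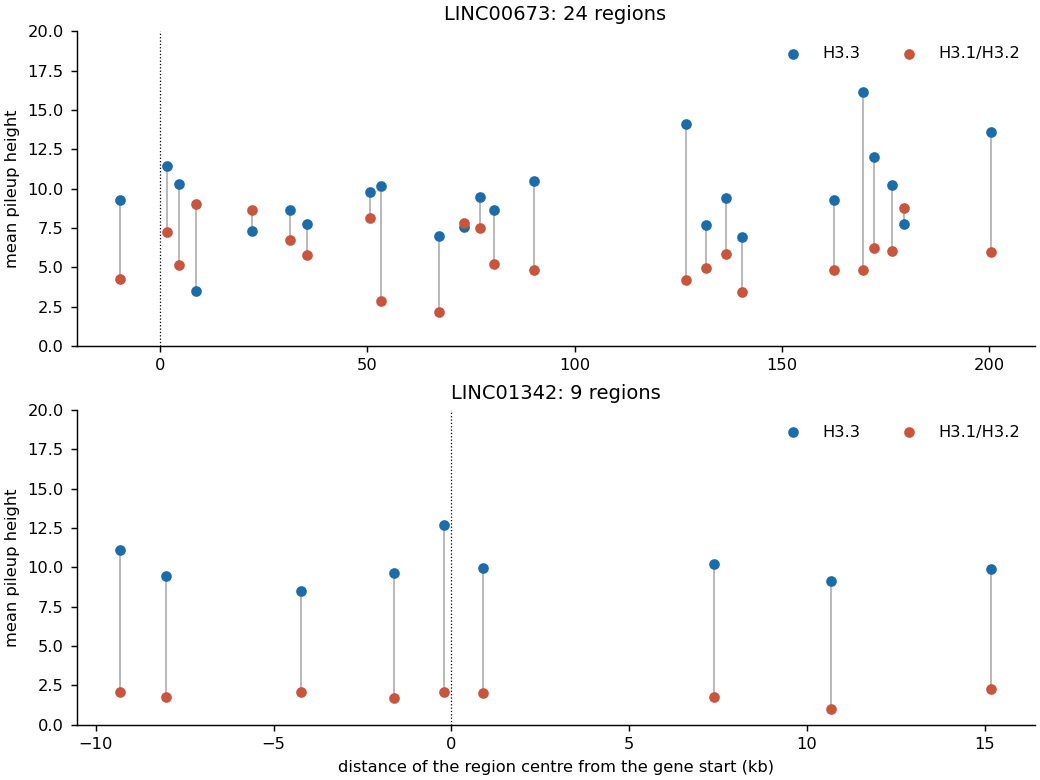
Mean pileup height (y axis) of H3.3 (blue) and H3.1/H3.2 (red) in each region of LINC00673 and LINC01342, by distance of the region centre from the gene start in kb (x axis). In LINC00673 the variants cross in 4 of 24 regions, and in LINC01342 the lowest H3.3 height (8.48) exceeds the highest H3.1/H3.2 height (2.28).

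The 5 longest LINC regions all had more H3.3 than H3.1/H3.2. LINC00963 held the longest, 23599 bases over its start on chromosome 9 (129483000 to 129506599), with 3 CpG islands, heights of 5.91 and 18.0 and 3.05-fold (2.78 to 3.34, from 623 and 1897 tags). It was called in both ChIPs. Also on chromosome 9, the promoter region of LINC01451 spanned 12799 bases with 4.06 and 19.0 (4.68-fold, 4.06 to 5.42), and a region of 9199 bases downstream of it had 2.71 and 14.6 (5.39-fold, 4.40 to 6.67). LINC01573, now NALT1 after the receptor gene NOTCH1, had 3.79 and 16.3 in a region of 9199 bases downstream of it (4.29-fold, 3.59 to 5.13). That region lay 12152 bases from NOTCH1. The region shared by LINC01272 and LINC01270 on chromosome 20 spanned 10799 bases with 5.74 and 17.1 (2.97-fold, 2.59 to 3.41). It opens a run of 5 regions whose nearest coding gene was CEBPB, 96710 to 126510 bases away, and whose folds lay between 2.68 and 2.97. CEBPB encodes a transcription factor of inflammation and differentiation. LINC00887 on chromosome 3 added a tall region of 3999 bases upstream of its start, with 3.11 and 18.5 (5.96-fold, 4.44 to 7.99).

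In 4 LINC regions the starts of a pair of LINC genes lay inside the same region. The pair of LINC00526 and LINC00667 on chromosome 18 had heights of 4.14 and 16.1 (3.88-fold, 2.68 to 5.71). LINC01116 and LINC01117 on chromosome 2 had 2.39 and 8.90 (3.73-fold, 1.83 to 7.86). At the pair of LINC00882 and LINC00883, the latter now DUBR, the interval of 0.693-fold included 1 (0.441 to 1.10), and LINC01579 with LINC01580, given above, leaned to H3.1/H3.2. Of the 3 pairs with a CpG island, 2 leaned to H3.3.

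LINC RNAs studied in cancer or development were compared as a list. Of 34 listed symbols, 15 had a LINC-only region, 6 had regions shared with other genes only and 13 were not among the symbols of the regions analysed. Their 52 regions had a median log2 ratio of 0.85, below the 1.28 of all LINC regions, and 26 passed 2-fold to H3.3, where 36.0% of all regions did. The opposite excess was found in 5, where 22.4% of all regions had it. LINC00673 supplied 24 of the 52. NORAD, in 3 regions, had H3.1/H3.2 heights from 7.60 to 8.51 and H3.3 heights from 10.2 to 12.3, and none reached 2-fold. LINC01139, the LINK-A RNA of triple-negative breast cancer, had 5.10 and 8.48 at its promoter, and its interval of 1.66-fold (0.959 to 2.90) included 1. LINC00662 leaned to H3.1/H3.2 downstream of the gene, with 6.35 and 1.75 (0.276-fold, 0.127 to 0.546). LINC00885 leaned to H3.3 in both of its promoter regions (2.94-fold and 4.06-fold), as did LINC00052 (2.69-fold, 1.07 to 8.78, from 6 and 17 tags).

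A second list held 11 symbols, picked for a micropeptide or a later name, and was not a full list of renamed genes. It shared LINC00467 with the first list, so the regions of that gene count in both. Of the 11, LINC01420, LINC00467 and LINC00908 had a LINC-only region, and 4 had only regions shared with other genes. Their 6 regions had a median of 0.64, with 3 past 2-fold to H3.3 (36.0% of all regions) and 1 to H3.1/H3.2 (22.4% of all). LINC01420, now NBDY, encodes the small protein NoBody of the mRNA decapping complex. Its 3 body regions had H3.1/H3.2 heights of 4.75, 6.72 and 1.80 and H3.3 heights of 6.35, 2.33 and 8.90, so the balance changed within the gene from 0.347-fold (0.108 to 0.877) to 4.94-fold (1.80 to 16.1).

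Chromosomes with at least 8 LINC regions had medians on the H3.3 side except chromosome 14. The median was 1.45 over 44 regions on chromosome 1, where all regions together had 0.36. On chromosomes 4 and 5, where all regions leaned to H3.1/H3.2 with -0.26 and -0.28, the 9 and 11 LINC regions had 1.43 and 1.35. On chromosome 14 the median of 8 regions was -0.06 (-1.88 to 1.15, lowest and highest) against -0.19 over all regions there, and 14 regions on chromosome 15 had 0.69 against 0.32. On chromosome 17, where LINC00673 lies, 28 regions had 0.62 against 0.52 over all regions there.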

How the data were processed

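ChIP DNA and input DNA of MDA-MB-231 LM2 cells were sequenced as single-end reads, and BWA, SICER and hg38 are named, per the submitters' processing notes, with versions and settings not given in the sources used here. The authors deposited 1 table of merged regions with a pileup signal per ChIP, as the mean and the highest height, and, per the file headers, a log2 ratio, which was recomputed here with a pseudocount of 1. Of 67969 regions 4 on chromosome Y were left out. Coordinates are printed as deposited.

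Tags were taken as the product of mean height and length over 224, the constant tying heights to the deposited tag numbers. Fold intervals are exact conditional and shares exact Clopper-Pearson, both at 95%. The fold intervals cover counting error only, since there was 1 library per antibody. The share intervals treat regions as independent, which neighbouring regions of 1 gene are not. No molecular identifiers are named in the sources used here. Differences of medians combine both interval widths in quadrature. Python 3.11.15, pandas 2.3.3 and scipy 1.17.1 were used.

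Named regions were the 8 highest and 8 lowest folds at promoters and in bodies (summed height at or above the median), the 5 tallest per variant, the 5 longest, the 5 genes with most regions, and members of 2 lists. Others (shared starts, single genes beside them) were chosen after their values were seen. Members and lists were chosen with earlier results of these data known. Not every gene that qualifies is described.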

Additional observations from a re-analysis of the deposited data

How the results depend on the processing

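With 1 library per antibody, depth and scaling limit every value. Libraries could not be paired across replicates, since each antibody had only this 1 library. The promoter and body medians (1.43 and 1.11) were 0.61 and 0.48 with a pseudocount of 10, which by construction shrinks ratios. They were 1.16 and 0.85 after centring on the median of all regions (0.27), an alternative chosen after the data were seen. They were 0.34 (3 regions) and 0.24 (9 regions, 6 of them LINC00673) in regions called in both ChIPs, where no gene had both places. The share of body regions past 2-fold to H3.3 was 54.4% with peak heights, 50.4% after that centring and 79.2% at 1.5-fold. The promoter minus body difference of 0.31 shrank to 0.13 with a pseudocount of 10 and to 0.10 in regions called in both. The within-gene difference turned from -0.06 to 0.024 without CpG island regions, both intervals including 0. The cause of these last changes was not tested. Of 64 values 54 stayed inside the interval of the reported one and kept its sign, of which 7 equalled it because the alternative could not change them. Another 9 lay outside that interval, and 1 changed sign inside it.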
